A study of Mus musculus with 6 samples.

Results

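The 6 genes described here are Hmga2, Ankrd1, Ccn1, Ccn2, Sprr1a and F3, of 34187 genes in the count matrices of 3 single-cell libraries from subcutaneous pancreatic tumors in mice. They were chosen by their high UMI counts in the tumor cells of these same data, so their levels are a description and carry no test. They were read in 37320 tumor epithelial barcodes and 1962 fibroblasts, of 130444 cell barcodes in all. A tumor epithelial barcode held at least 5 UMIs (unique molecular identifiers, each standing for 1 captured RNA molecule, sequenced from its 5′ end) of the keratins Krt8 and Krt18 together and 0 UMIs of Ptprc, the gene for CD45. Fibroblasts were barcodes outside that gate in clusters named fibroblast-like from markers such as Col1a1.

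C57BL/6 mice carried 6694c2vTRP1 tumors, from a pancreatic ductal adenocarcinoma line, and received PBS, mono-IL10 (26 µg per mouse) or IL10/2-Trikine (30.6 µg per mouse). IL10/2-Trikine is an engineered cytokine that joins a monomeric IL-10 to a non-agonist form of IL-2, which recruits the receptor chain IL-2Rβ. Mono-IL10 is its IL-10 comparator. Injections into the abdominal cavity began on day 8 after inoculation, 2 doses were given, and tumors were taken on day 14. The tumors were minced and digested with enzymes at body temperature. Leukocytes were then enriched with magnetic beads for CD45, so the tumor cells and fibroblasts are cells that came through that step, and their numbers do not give the makeup of the tumor. Cells of each mouse carried a hashtag antibody. The mice of 1 treatment were pooled into 1 library, so treatment and library cannot be told apart. The study stated 5 mice for each cytokine group, and the hashtags gave 5 in every group, PBS included. Both cytokine comparisons rest on 1 set of PBS controls. The tumor line is 1 clone, and the age of the sequenced mice is not given in the sources used here.

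YAP and its relative TAZ are transcriptional coactivators that are held in the cytoplasm by the Hippo kinases and act in the nucleus through the DNA-binding TEAD proteins. Ankrd1 (a nuclear ankyrin repeat protein), Ccn1 and Ccn2 (secreted matricellular proteins) are textbook YAP targets, and Ccn1 is also induced within minutes by serum and stress. Hmga2 is a chromatin architectural protein of embryonic tissue that many carcinomas express again, Sprr1a is a precursor of the cornified envelope of squamous epithelium that injured epithelia also make, and F3 is tissue factor, the membrane receptor that starts the extrinsic coagulation cascade.

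The 250 bases before the start site were in the RefSeq promoter table (GRCm38.p6, a build older than the GRCm39 the submitters name) for 5 of the 6 genes, all but Ccn2. They are shown for the genes that held a TEAD motif, spelled GGAATG, or an AP-1 motif, spelled TGANTCA, on either strand, because the first motif was matched in Ankrd1 and Ccn1 and the second in Sprr1a and F3. Capitals mark the matches, each sequence runs 5′ to 3′ on the strand of its gene, and CATTCC is GGAATG read from the other strand. These windows lie at chr19:36119845-36120094 (minus strand, Ankrd1), chr3:145649986-145650235 (minus strand, Ccn1), chr3:92485882-92486131 (minus strand, Sprr1a) and chr3:121723287-121723536 (plus strand, F3).
Ankrd1: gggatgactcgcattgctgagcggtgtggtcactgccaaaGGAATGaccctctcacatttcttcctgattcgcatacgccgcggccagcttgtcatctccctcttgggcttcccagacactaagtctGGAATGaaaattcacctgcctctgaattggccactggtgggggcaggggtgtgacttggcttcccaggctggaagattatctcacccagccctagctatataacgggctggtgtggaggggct
Ccn1: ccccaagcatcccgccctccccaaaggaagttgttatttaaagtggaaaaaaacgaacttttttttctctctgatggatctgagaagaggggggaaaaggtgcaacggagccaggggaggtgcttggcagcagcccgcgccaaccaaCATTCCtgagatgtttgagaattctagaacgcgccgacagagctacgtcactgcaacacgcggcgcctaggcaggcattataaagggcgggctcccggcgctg
Sprr1a: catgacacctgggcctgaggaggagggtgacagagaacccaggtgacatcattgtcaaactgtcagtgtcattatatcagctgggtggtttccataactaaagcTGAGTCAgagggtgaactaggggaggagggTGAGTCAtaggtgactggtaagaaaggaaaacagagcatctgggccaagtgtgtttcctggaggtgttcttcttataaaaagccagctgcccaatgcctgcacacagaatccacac
F3: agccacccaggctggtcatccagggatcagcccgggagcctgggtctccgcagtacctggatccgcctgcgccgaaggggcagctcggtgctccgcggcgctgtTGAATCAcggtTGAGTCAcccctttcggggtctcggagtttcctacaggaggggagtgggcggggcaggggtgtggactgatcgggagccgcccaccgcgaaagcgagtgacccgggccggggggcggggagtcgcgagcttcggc
Ankrd1 held GGAATG at 2 places, starting 210 and 123 bases before the start site, and Ccn1 held it once, between 103 and 98 bases before it. Sprr1a held TGAGTCA starting 146 and 116 bases before its start, and F3 held TGAATCA and TGAGTCA starting 146 and 135 bases before its start. No match to either motif lay in this window of Hmga2, none to the AP-1 motif in Ankrd1 or Ccn1, and none to the TEAD motif in Sprr1a or F3. Of 32851 promoters of the same length, 12.6% held GGAATG and 6.75% held TGANTCA, and a match is only a match of letters.

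The libraries held 515236552 (PBS), 458860129 (mono-IL10) and 364814102 (IL10/2-Trikine) gene UMIs, and any pair of them shared between 408 and 700 barcode sequences, at most 1.58% of the smaller library. Of the tumor epithelial barcodes, 9647 came from PBS, 7275 from mono-IL10 and 20398 from IL10/2-Trikine, with a median of 19146, 28197 and 8732.5 UMIs, so a cell with IL10/2-Trikine was read at less depth. A single hashtag was called for 19192 of them, between 581 and 2616 per mouse. In the gate, 84.3% to 87.3% of barcodes per library fell in clusters named tumor epithelial-like from their markers and 12.5% to 15.3% in clusters without a name. The gate counts UMIs before any thinning, so it depends on depth. Of tumor epithelial-like barcodes outside it, 89.2% (PBS), 90.0% (mono-IL10) and 64.3% (IL10/2-Trikine) held Ptprc. In that order, 12.3%, 10.6% and 39.1% held too few keratin UMIs. The part of this in the differences between treatments was not tested. Of markers the gate did not use, Krt19 stood at 969 ± 125 CPM (UMIs per 1000000 UMIs, mean over mice ± SD, n = 15), Tyrp1, which the line's name refers to, at 44.8 ± 15.2, and Col1a1 at 101 ± 64.4 against 23698 in fibroblasts.

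Hmga2, Ankrd1, Sprr1a and F3 were highest in the tumor cells, while Ccn1 and Ccn2 were shared with the stroma. The level is in CPM, the UMIs of a gene per 1000000 UMIs of its cell class in 1 mouse, given as the mean over 15 mice ± SD, and it compares cell classes for a gene, not genes with each other. Hmga2 stood at 277 ± 57.7 in tumor epithelial barcodes, 9.29 ± 5.83 in fibroblasts and 2.52 ± 0.961 in macrophages or monocytes. Ankrd1 stood at 177 ± 29.3, 9.31 ± 6.56 and 1.25 ± 0.551 in the same classes, and Sprr1a at 674 ± 283, 4.77 ± 6.85 and 3.19 ± 1.40. For each of these 3 genes the lowest tumor value of a mouse was above the highest in any class of other cells, and the fibroblast, pericyte and endothelial ranges overlapped each other.

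F3 stood at 239 ± 41.2 in tumor epithelial barcodes and 47.9 ± 24.5 in fibroblasts. Neutrophils held it at 61.8 ± 25.3 (10 mice with at least 10 neutrophils), which overlapped the fibroblast range, while macrophages or monocytes held 5.48 ± 1.82. The lowest tumor value, 178, lay above the highest of a mouse in fibroblasts, 122.

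The matricellular gene Ccn1 stood at 722 ± 177 in tumor epithelial barcodes, 583 ± 181 in fibroblasts, 509 ± 169 in pericytes or smooth muscle and 460.5 ± 95.6 in endothelium, with ranges of mice that overlapped between these classes. Ccn2 was highest in pericytes or smooth muscle at 488 ± 197, followed by fibroblasts at 381 ± 179, tumor epithelial barcodes at 216 ± 28.9 and endothelium at 145 ± 50.4, and neighbours in this order overlapped. Macrophages held 6.46 ± 3.83 of Ccn1 and 2.66 ± 1.86 of Ccn2.

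**Figure D1:**
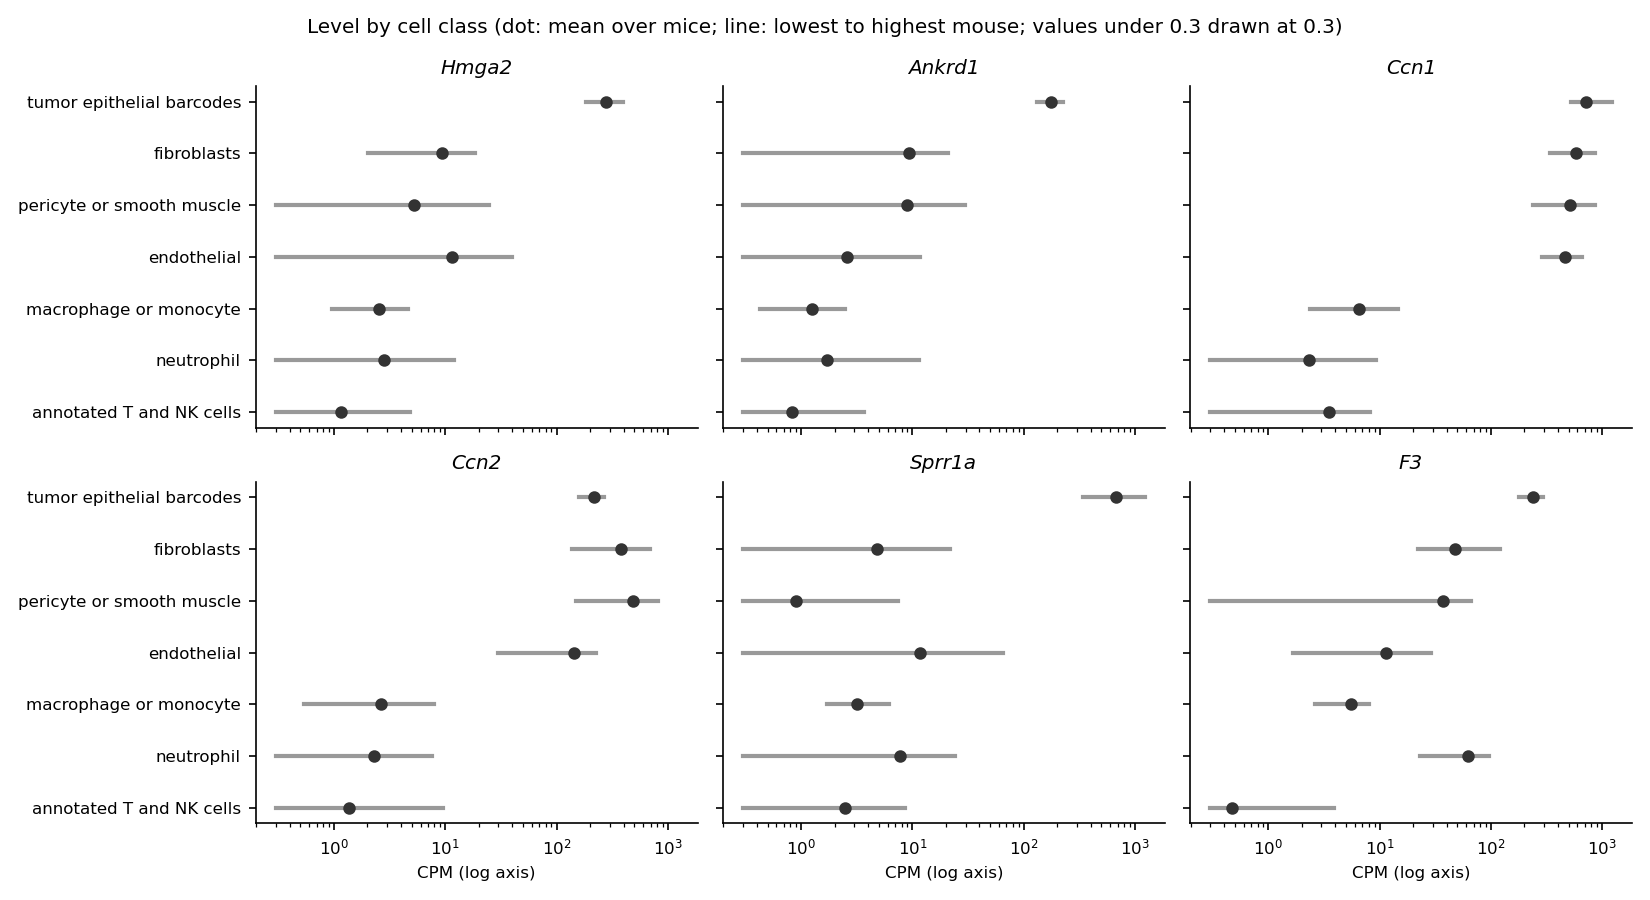
Level of each gene in CPM (log axis) by cell class; the dot is the mean over mice and the line runs from the lowest to the highest mouse. Hmga2, Ankrd1, Sprr1a and F3 stand highest in tumor epithelial barcodes (means of 277, 177, 674 and 239), while Ccn1 and Ccn2 are also present in the stromal classes, with Ccn2 highest in pericytes or smooth muscle (488).

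As a share of cells with at least 1 UMI, before any correction for depth, Hmga2 was seen in 70.9% of tumor epithelial barcodes, Ankrd1 in 56.8%, Ccn1 in 82.1%, Ccn2 in 67.1%, Sprr1a in 51.0% and F3 in 74.4% (median 12429 UMIs). In macrophages or monocytes, taken to lack most of these RNAs, the shares were 1.01%, 0.488%, 2.13%, 0.898%, 1.44% and 2.76% (median 4722 UMIs). They serve as a rough guide to the background of free RNA, which was not measured, and RNA made by the macrophages themselves would be counted in them. Fibroblasts, read at more depth, showed Sprr1a in 1.99% of cells and Ankrd1 in 4.69% (median 9475.5 UMIs), so Sprr1a there was near the macrophage share.

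Between treatments, some of the 6 genes passed the test in the tumor cells and others did not. The fitted log2 differences of all 6 were below 0 with IL10/2-Trikine against PBS, and 2 of them passed the test. The 95% intervals of Hmga2, Ccn2 and Sprr1a held 0. Of all genes tested in this comparison, 12.3% were called lower and 10.6% higher, and the median difference was 0.0006. With IL10/2-Trikine, F3 and Ankrd1 were lower than with PBS, and F3, Sprr1a and Ankrd1 were lower than with mono-IL10, while Sprr1a was higher with mono-IL10 than with PBS. Hmga2, Ccn1 and Ccn2 did not pass the test in any of the 3 comparisons. The test was edgeR's quasi-likelihood test on counts summed per mouse over all 14910 genes that passed a filter on low counts, with all 6 among them, and adjusted p-values are Benjamini-Hochberg values over all of these genes. The p-values measure the spread between mice of 1 library each.

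F3, tissue factor, stood at 282, 266.5, 238, 252 and 262 CPM in the 5 PBS mice. The 5 mono-IL10 mice held 292, 261, 242, 264 and 284, and the 5 IL10/2-Trikine mice 178, 216, 180.5, 179.9 and 182. All 5 IL10/2-Trikine mice lay below all 10 others, and PBS and mono-IL10 overlapped. F3 fell by 0.45 on the log2 scale (SE 0.06) with IL10/2-Trikine against PBS (edgeR, adjusted p = 1.09e-04) and by 0.61 (SE 0.06) against mono-IL10 (edgeR, adjusted p = 4.17e-06), and it differed by 0.16 (SE 0.06) between mono-IL10 and PBS (edgeR, adjusted p = 0.164). With every barcode thinned to 5000 UMIs the difference from PBS was -0.39 (SE 0.06; edgeR, adjusted p = 3.38e-04).

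Sprr1a, the cornified envelope precursor, stood at 352, 825.5, 561, 442 and 604 CPM in the PBS mice. The mono-IL10 mice held 1022, 914, 1223, 862 and 1033.5, and the IL10/2-Trikine mice 340.1, 580.1, 403, 429.6 and 521. Every mono-IL10 mouse was above every mouse of the other groups, whose ranges overlapped. Sprr1a rose by 0.97 on the log2 scale (SE 0.22), 1.95-fold, with mono-IL10 against PBS (edgeR, adjusted p = 0.0256), and fell by 1.24 (SE 0.22) with IL10/2-Trikine against mono-IL10 (edgeR, adjusted p = 0.00102). IL10/2-Trikine against PBS gave -0.27 with a 95% interval from -0.71 to 0.16 (edgeR, adjusted p = 0.414). The rise with mono-IL10 missed the threshold when PBS mouse 3, 4 or 5 or mono-IL10 mouse 1, 3 or 5 was left out, with differences from 0.84 to 1.17 over all mice left out in turn and an adjusted p of up to 0.0726.

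Ankrd1, the nuclear YAP target, stood at 225, 187, 154, 226 and 204 CPM with PBS. With mono-IL10 it stood at 179.6, 196, 172, 195 and 166, and with IL10/2-Trikine at 133, 180.0, 156, 149 and 133. In all, 3 of 5 IL10/2-Trikine mice lay below every PBS mouse and 4 of 5 below every mono-IL10 mouse. Ankrd1 fell by 0.38 on the log2 scale (SE 0.10) against PBS (edgeR, adjusted p = 0.0150) and by 0.36 (SE 0.10) against mono-IL10 (edgeR, adjusted p = 0.0123). Both calls were lost with barcodes thinned to 5000 UMIs, at -0.36 (edgeR, adjusted p = 0.0659) and -0.31 (edgeR, adjusted p = 0.0718), and the second also with library size alone or a stricter keratin gate.

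Ccn1 stood at 1219.6, 719.8, 598, 956 and 850.4 CPM with PBS. It stood at 519.7, 667, 597, 794 and 695 with mono-IL10 and at 642, 691, 659, 628 and 594 with IL10/2-Trikine. The PBS mice were spread the most and overlapped both cytokine groups. The difference from PBS was -0.41 (SE 0.16) with IL10/2-Trikine (edgeR, adjusted p = 0.0738) and -0.30 (SE 0.16) with mono-IL10 (edgeR, adjusted p = 0.305). The first was past the threshold in DESeq2 (adjusted p = 0.0469) and in edgeR without PBS mouse 3, at -0.52 (adjusted p = 0.0143), and in none of the other alternatives. Without PBS mouse 1, the highest, it was -0.26.

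Hmga2 stood at 217, 233, 393, 258 and 329 CPM with PBS. With mono-IL10 it stood at 339.7, 282, 264, 224 and 360.2, and with IL10/2-Trikine at 186, 288, 271, 228 and 277. The groups overlapped, with 1 IL10/2-Trikine mouse below all others. The difference between IL10/2-Trikine and PBS was -0.17 with a 95% interval from -0.53 to 0.19 (edgeR, adjusted p = 0.555), moving between -0.26 without PBS mouse 1 and -0.03 without PBS mouse 3, and that between IL10/2-Trikine and mono-IL10 was -0.32, from -0.68 to 0.04 (edgeR, adjusted p = 0.197).

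Ccn2 passed no test in the tumor cells. It stood at 267, 202, 199.6, 261 and 227 CPM with PBS, at 158, 194, 182, 229 and 231 with mono-IL10, and at 203, 214, 219.5, 244 and 209 with IL10/2-Trikine. The difference between IL10/2-Trikine and PBS was -0.07, with a 95% interval from -0.26 to 0.13 (edgeR, adjusted p = 0.681), that between IL10/2-Trikine and mono-IL10 was 0.04, from -0.15 to 0.23 (edgeR, adjusted p = 0.783), and that between mono-IL10 and PBS was -0.11, from -0.30 to 0.08 (edgeR, adjusted p = 0.580). With library size alone the last was -0.22 and the one before it 0.13, neither past the threshold.

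**Figure D2:**
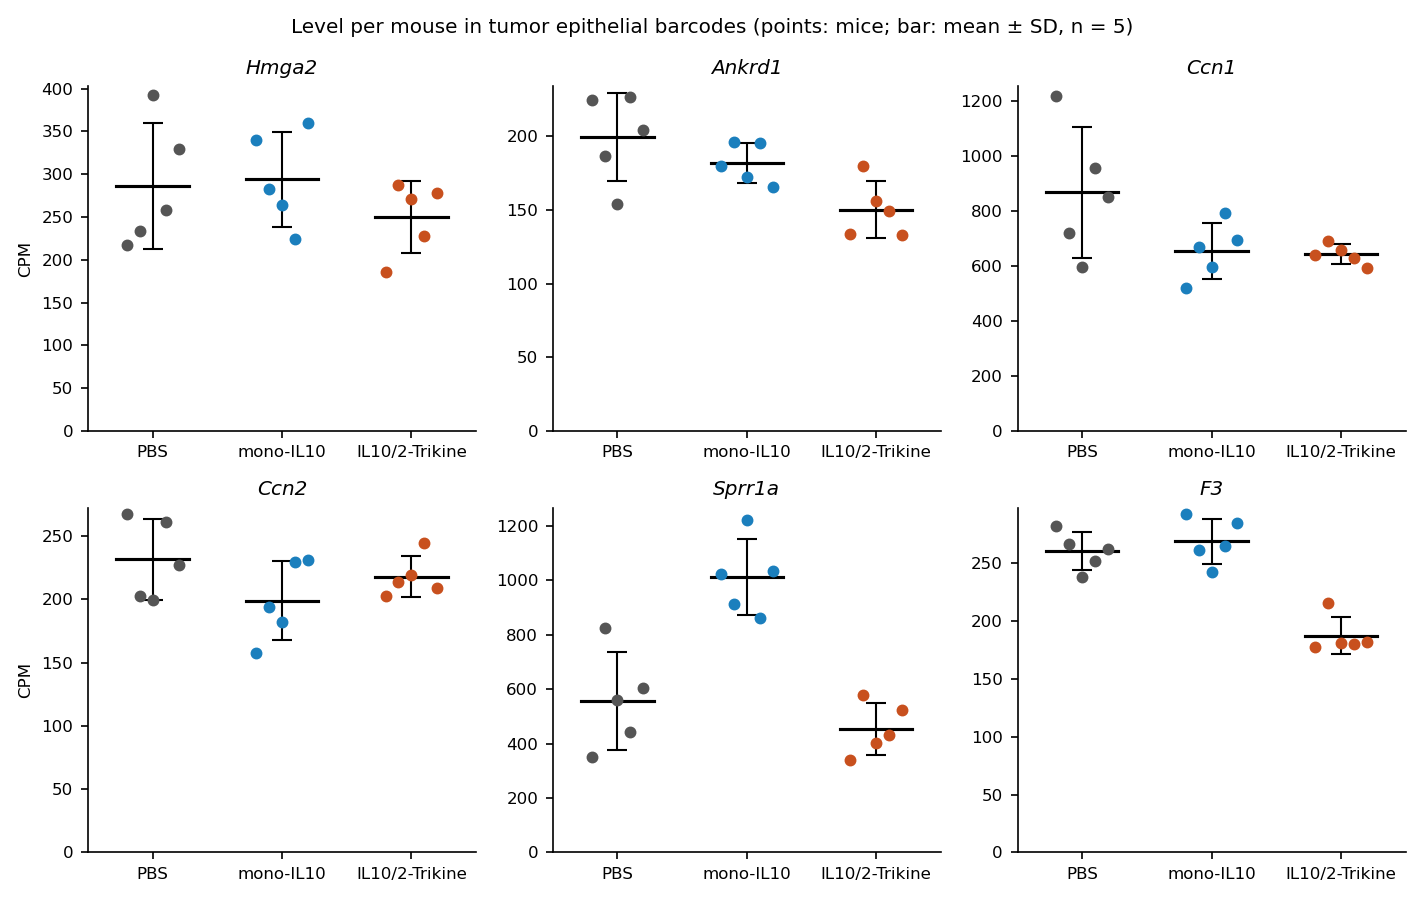
Level of each gene in tumor epithelial barcodes of each mouse in CPM, by treatment; points are mice and bars the mean ± SD of 5 mice. The F3 points with IL10/2-Trikine, 178 to 216, lie below all others, and the Sprr1a points with mono-IL10, 862 to 1223, lie above all others.

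Counted over the genes, 2 of 6 fell and 0 rose with IL10/2-Trikine against PBS, where 22.9% of all genes tested were called, 10.6% higher and 12.3% lower. Against mono-IL10, 3 of 6 fell and 0 rose, where 35.2% of all genes were called, 16.4% higher and 18.8% lower. With mono-IL10 against PBS, 1 of 6 rose and 0 fell, where 5.71% of all genes were called, 4.28% higher and 1.43% lower. Groups that do not overlap were as common as 10.3% of all genes for lower values against PBS and 6.67% against mono-IL10, and 1.19% for higher values with mono-IL10 against PBS. The median difference over the 6 genes was -0.33, -0.34 and 0.07 in these comparisons, beside medians over all genes that were within 0.01 of 0.

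The scale of the libraries bears on these directions. Before TMM scaling (a correction for differences in RNA composition between samples), the median gene stood 0.11 lower on the log2 scale in mono-IL10 than in PBS tumor barcodes and 0.10 higher in IL10/2-Trikine than in mono-IL10. With library size alone, the share of calls that were higher was 8.72% in place of 75.0% for mono-IL10 against PBS, 71.1% in place of 46.7% for IL10/2-Trikine against mono-IL10 and 38.1% in place of 46.4% for IL10/2-Trikine against PBS. The 6 genes kept their direction in each of these comparisons under that scaling. In fibroblasts, IL10/2-Trikine against mono-IL10, the share of calls that were higher was 69.5% with library size alone in place of 31.7%.

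Markers of other cells also moved in the tumor epithelial barcodes. The summed level of 8 macrophage markers was 84.0 to 104 CPM in the PBS mice, 42.8 to 76.1 with mono-IL10 and 111 to 577 with IL10/2-Trikine, against 12309.5 in macrophages. That of 6 neutrophil markers was 46.6 to 64.0, 24.3 to 65.6 and 116 to 195, against 41410 in neutrophils, and that of 8 fibroblast markers 96.5 to 354, 71.0 to 245 and 328 to 929. None of these markers was at 0 in every mouse of a group. With IL10/2-Trikine against PBS, 4 of 8 macrophage, 3 of 6 neutrophil and 1 of 8 fibroblast markers rose in the same fit, and against mono-IL10 7 of 8, 5 of 6 and 4 of 8. The macrophage sum was highest in IL10/2-Trikine mouse 1. The 8 tumor epithelial markers summed to 4529 to 6031 with PBS, 4983 to 5721 with mono-IL10 and 4067 to 4431 with IL10/2-Trikine. The part of these RNAs in the differences of the 6 genes was not tested.

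In fibroblasts differences are given for Ccn1, Ccn2 and F3. A mouse gave 28 to 133 fibroblasts, and Hmga2, Ankrd1 and Sprr1a had at most 16.6 UMIs per mouse on average in any group, so no differences are given for them, a choice made after the values were seen. Of the 6 genes, 5 passed the filter on low counts, all but Sprr1a, among 7901 genes tested.

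Ccn1 in fibroblasts stood at 854, 527, 433, 834 and 827 CPM in the PBS mice. It stood at 371, 342, 365, 493 and 391 with mono-IL10 and at 742, 637, 671, 661 and 593 with IL10/2-Trikine. All 5 IL10/2-Trikine mice lay above all 5 mono-IL10 mice, and 4 of 5 mono-IL10 mice lay below every PBS mouse. Ccn1 rose by 0.66 on the log2 scale (SE 0.17), 1.58-fold, with IL10/2-Trikine against mono-IL10 (edgeR, adjusted p = 0.0445), where 3.91% of all genes were called, 1.24% higher and 2.67% lower, and 3.92% had higher values without overlap. The difference between mono-IL10 and PBS was -0.75 (SE 0.17; edgeR, adjusted p = 0.116), where 0.152% of genes were called, and that between IL10/2-Trikine and PBS was -0.10, with a 95% interval from -0.43 to 0.23 (edgeR, adjusted p = 0.853).

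These fibroblast values sat close to the threshold. The call against mono-IL10 was lost when any of 9 of the 15 mice was left out, mono-IL10 mouse 1, 2, 3 or 5 or any IL10/2-Trikine mouse (0.60 to 0.75 over all 15), with fibroblasts taken by a collagen gate, at 0.57 (edgeR, adjusted p = 0.163), and with every mouse thinned to 1 total, at 0.66 (edgeR, adjusted p = 0.0780). The difference between mono-IL10 and PBS was called by DESeq2 (adjusted p = 6.34e-04), at -0.74 without the filter on low counts (edgeR, adjusted p = 5.42e-08) and at -0.89 without PBS mouse 3 (edgeR, adjusted p = 0.00430). In the same fibroblasts 8 macrophage markers summed to 220.3 to 777 CPM with PBS, 169 to 731 with mono-IL10 and 168 to 1291 with IL10/2-Trikine. In that order, 6 neutrophil markers summed to 101 to 440 (median 309), 31.0 to 450 (median 75.3) and 85.0 to 439 (median 242). The 8 tumor epithelial markers summed to 11.9 to 16.9, 7.28 to 13.3 and 8.08 to 33.8. The part of any of these RNAs in the values of Ccn1 was not tested.

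Ccn2 in fibroblasts stood at 694, 197, 246, 425.5 and 223 CPM with PBS, at 136, 341, 645, 466 and 569 with mono-IL10 and at 412, 229, 159.6, 517 and 457 with IL10/2-Trikine. The groups overlapped widely, and the difference between IL10/2-Trikine and PBS was -0.04 with a 95% interval from -0.97 to 0.90 (edgeR, adjusted p = 0.989), turning positive without PBS mouse 1 or 4 or IL10/2-Trikine mouse 2 or 3. F3 in fibroblasts stood at 47.0, 54.6, 80.9, 27.8 and 38.0 with PBS, at 122, 35.2, 50.1, 44.0 and 40.2 with mono-IL10 and at 45.6, 31.9, 22.2, 40.7 and 38.1 with IL10/2-Trikine. The difference for F3 was -0.57 against PBS, from -1.34 to 0.19 (edgeR, adjusted p = 0.566). With IL10/2-Trikine against PBS, edgeR called 0 of the 5 genes, none of them at an unadjusted p under 0.05 either, where 1.29% of all genes were called.

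**Figure D3:**
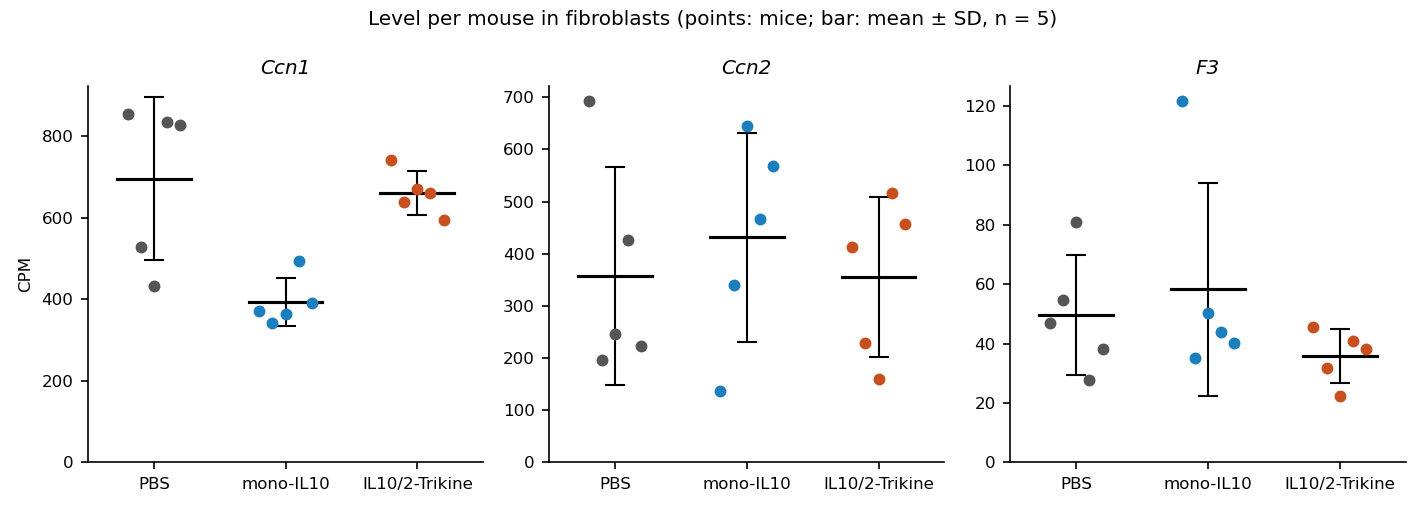
Level of Ccn1, Ccn2 and F3 in fibroblasts of each mouse in CPM, by treatment; points are mice and bars the mean ± SD of 5 mice. For Ccn1 the mono-IL10 mice, 342 to 493, lie below all IL10/2-Trikine mice, 593 to 742, while the groups overlap for Ccn2 and F3.

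The change of Ccn1 between the cytokines differed between fibroblasts and tumor cells of the same mice. IL10/2-Trikine against mono-IL10 gave 0.66 in fibroblasts and -0.12 in tumor epithelial barcodes, and the difference of these differences, tested in 1 edgeR fit over 7703 genes with the mouse as a block, was 0.72 (SE 0.09, adjusted p = 7.24e-04). In that fit 3.04% of all genes were called, 0.312% higher, and Ccn1 kept its call in all 17 alternatives, with an adjusted p of up to 0.00349. Of these, 15 left out a mouse and only 2 were other settings, while Ccn1 in fibroblasts alone was tried in 8 other settings. The same test gave -0.44 (SE 0.09) for mono-IL10 against PBS (edgeR, adjusted p = 0.166), where 0 genes were called and 527 had an unadjusted p under 0.05. Without the filter on low counts this difference passed the threshold, at -0.44 (edgeR, adjusted p = 0.00136). It gave 0.27 (SE 0.09) for IL10/2-Trikine against PBS (edgeR, adjusted p = 0.187), where 0.636% of genes were called. Ccn2 and F3 were past the threshold in none of the 3. This test was added after the values had been seen.

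Detection of the 6 genes was also counted within single tumor cells. To compare cells of unequal depth, each tumor epithelial barcode was thinned to 5000 UMIs, which kept 9169 of PBS, 7123 of mono-IL10 and 17008 of IL10/2-Trikine, between 83.4% and 97.9% of a library. At this depth 40.1% of PBS barcodes held at least 4 of the 6 genes, 43.2% with mono-IL10 and 38.8% with IL10/2-Trikine. The product of the single shares, which independent detection would give, was 36.9%, 42.1% and 36.4%. All 6 genes were seen in 3.16%, 3.93% and 3.03% of barcodes, beside products of 1.62%, 2.26% and 1.59%, and none of them in 2.74%, 1.77% and 2.55%, beside 1.04%, 0.802% and 1.07%. Both ends were fuller than the products.

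Over mice, the share with at least 4 genes was 42.8% ± 2.07 with PBS, 46.6% ± 1.53 with mono-IL10 and 40.2% ± 4.16 with IL10/2-Trikine (SD, n = 5), with overlapping ranges. Without thinning it was 79.2%, 88.0% and 62.6%, in the order of the depth of the libraries. In fibroblasts thinned the same way it was 0.870%, 0.652% and 1.61%, and Ccn1 and Ccn2 were seen together in 35.3%, 33.0% and 38.9%.

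Among the single genes at 5000 UMIs, Hmga2 was seen in 53.9% of PBS, 58.7% of mono-IL10 and 51.0% of IL10/2-Trikine barcodes, and F3 in 57.2%, 57.8% and 51.8%. Sprr1a was seen in 37.7%, 53.1% and 41.8%, and Ankrd1 in 40.4%, 39.3% and 37.3%. Ccn1 was seen in 73.3%, 70.5% and 74.1%, and Ccn2 in 47.2%, 45.2% and 51.9%. For Sprr1a, Ccn1 and Ccn2 the order of PBS and IL10/2-Trikine in these shares is the opposite of that in the levels, so no order is read from them.

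Co-detection of a pair is given as the share of barcodes with both genes divided by the product of the single shares, per mouse, and as a description, since the barcodes of a library share its depth and free RNA. The pairs among Ankrd1, Ccn1 and Ccn2 had the highest ratios over all mice: 1.16 ± 0.04 (SD, n = 15 mice) for Ankrd1 and Ccn2, 1.12 ± 0.02 for Ankrd1 and Ccn1 and 1.12 ± 0.03 for Ccn1 and Ccn2, above 1 in 15 of 15 mice each. That order did not hold throughout, since with IL10/2-Trikine Ccn1 and Ccn2 stood at 1.09, below Hmga2 and Ankrd1 at 1.12, and unthinned they stood at 1.07, below Hmga2 and Ankrd1 at 1.09. A ratio cannot exceed 1 divided by the larger single share, so pairs with the often seen Ccn1 had the least room. Ratios of unlike pairs are therefore not on 1 scale. The Pearson correlations given below ran otherwise, at 0.33 for Ccn1 and Ccn2, 0.27 for Ankrd1 and Ccn1 and 0.21 for Ankrd1 and Ccn2. F3 followed with Ankrd1 at 1.10 ± 0.03 and with Sprr1a at 1.07 ± 0.04, also above 1 in 15 of 15 mice. With Ccn1, where the ratio has less room, F3 stood at 1.04 ± 0.02 (15 of 15), and with Ccn2 at 1.01 ± 0.04 (12 of 15). Hmga2 stood at 1.09 ± 0.05 with Ankrd1 (14 of 15 mice), 1.05 ± 0.03 with F3 (14 of 15) and 1.01 ± 0.03 with Ccn2 (9 of 15).

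Sprr1a stood apart from the matricellular genes. Its ratio was 0.968 ± 0.03 with Ccn1, below 1 in 14 of 15 mice, and 0.933 ± 0.04 with Ccn2, below 1 in 15 of 15 mice. Without thinning, both of these ratios rose past 1, to 1.02 and 1.01.

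**Figure D4:**
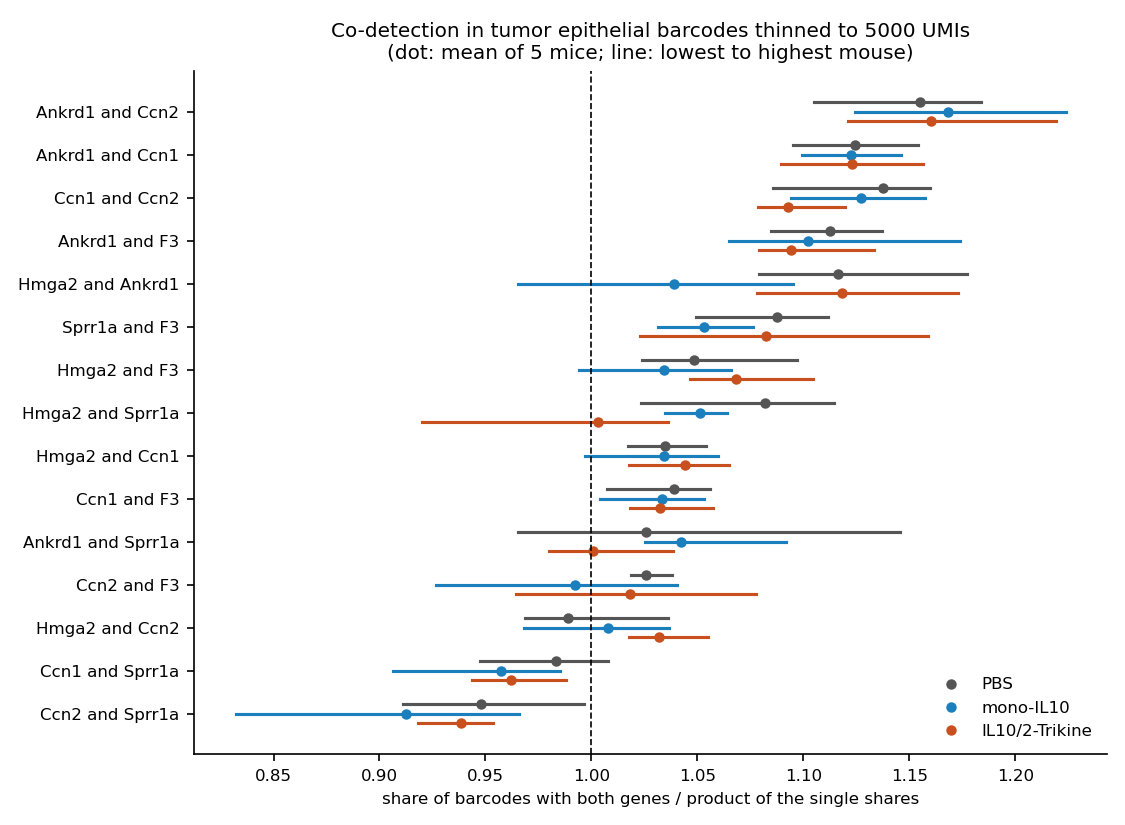
Share of tumor epithelial barcodes with both genes of a pair divided by the product of the single shares, at 5000 UMIs per barcode; dots are means of 5 mice, lines run from the lowest to the highest mouse and the dashed line marks 1. Ankrd1 with Ccn2 stands highest, at a mean over all mice of 1.16, and Ccn2 with Sprr1a lowest, at 0.933. The highest possible ratio is lower for pairs with an often seen gene such as Ccn1.

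The level of Hmga2 varied most of the 6 genes over the 16 clusters that held the most tumor epithelial barcodes, from 41.7 CPM in a cluster that led with Phgr1 and Tff1 to 661 in one that led with Mmp3, Lbp and Flnc, 15.9-fold. Clusters with few of these barcodes were left out. The Mmp3 cluster got no name from the markers, and among clusters named tumor epithelial-like the highest Hmga2 level was 551. Ankrd1 was lowest in the Phgr1 and Tff1 cluster, at 49.9. It was highest at 240.5 in a cluster that led with the DNA replication genes Uhrf1 and Hells, also without a name. A further unnamed cluster led with the neutrophil markers S100a9 and S100a8. Ccn1 ran from 254 to 1087, Ccn2 from 126 to 337 and F3 from 128 to 303. Sprr1a ran from 219 to 1486, and the Phgr1 and Tff1 cluster, lowest for Hmga2, Ankrd1, Ccn1 and Ccn2, held it at 1276, second to the cluster that led with Sprr1a. The clusters were built on these same counts, so these ranges are a description.

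**Figure D5:**
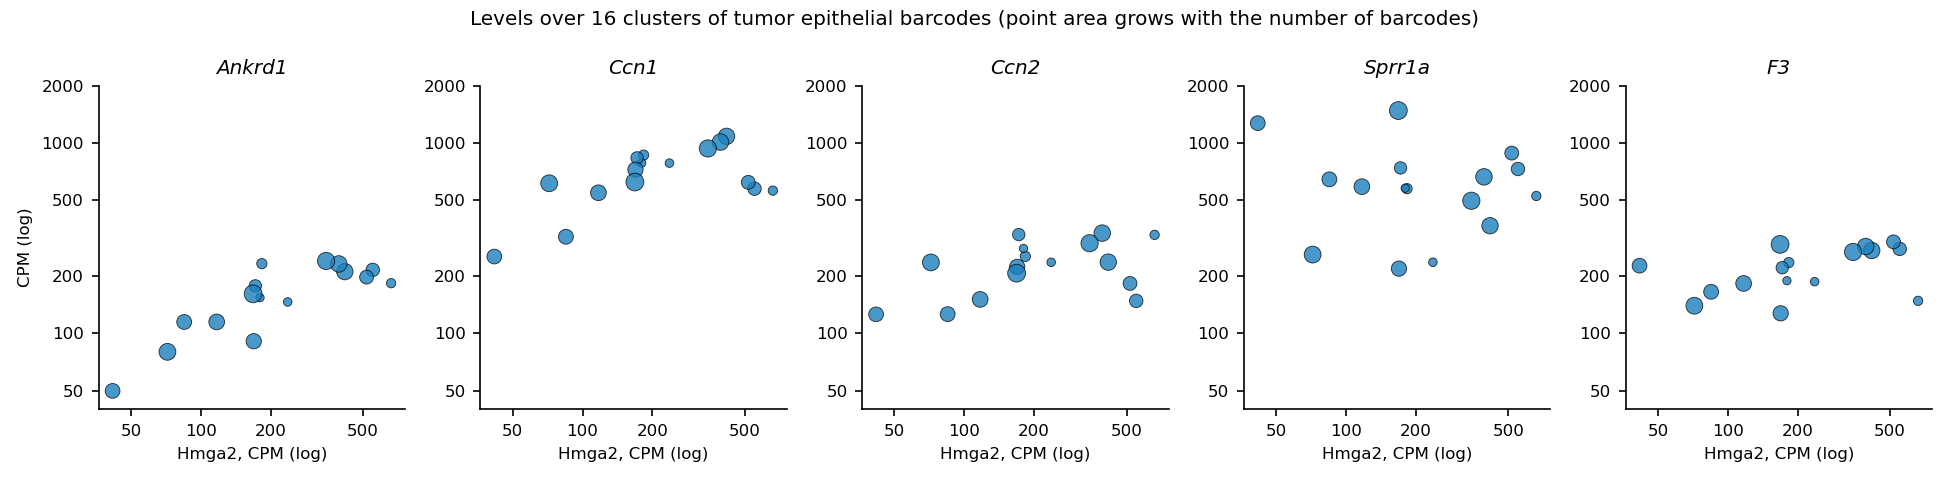
Level of the other 5 genes against that of Hmga2 in 16 clusters of tumor epithelial barcodes, in CPM on log axes; each point is a cluster and its area grows with its number of barcodes. Ankrd1 is lowest, 49.9, where Hmga2 is lowest, 41.7, and Sprr1a is spread from 219 to 1486 without that order.

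Barcodes with more Hmga2 held more Vim and less Epcam and Tff2. In PBS barcodes at 5000 UMIs, from those with 0 Hmga2 UMIs (46.1% of barcodes) to those with 3 or more (18.9%), Ankrd1 went from 148 to 244 CPM, F3 from 210.2 to 317 and Sprr1a from 447 to 609. Vim, the mesenchymal intermediate filament, went from 2518 to 3549, Krt8 from 2408 to 1776, the epithelial adhesion gene Epcam from 26.2 to 6.47 and the mucosal trefoil gene Tff2, singled out after its values were seen, from 166 to 16.1. Ccn1 at 871 and 829.8 and Ccn2 at 243 and 246 stood at like levels in the lowest and the highest Hmga2 class. In mono-IL10 barcodes Ankrd1 went from 150.1 to 205 and Tff2 from 164 to 8.82, and in IL10/2-Trikine barcodes from 119 to 207 and from 178 to 25.8. Over the same classes Ccn1 went from 605 to 777 with IL10/2-Trikine and from 685 to 612 with mono-IL10.

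The genes most like each member across thinned tumor epithelial barcodes differed from member to member. Likeness was the Pearson correlation of log2(count + 1), averaged over 3 libraries, over 7988 genes seen in at least 5% of barcodes. The barcodes of a library share its depth and free RNA, so the values are descriptive. Hmga2 was most like Lgals1 (0.31), Tpm1 (0.27), Igfbp4 (0.25), Msn (0.25) and the collagenase gene Mmp13 (0.25), and least like Fxyd3 (-0.31). Sprr1a was most like Lgals3 (0.31), the EGF receptor ligand gene Areg (0.31), S100a10 (0.26), S100a6 (0.26) and Krt19 (0.25). F3 was most like Actg1 (0.23), Dusp5 (0.19), Phlda1 (0.18), Krt8 (0.17) and Krt18 (0.16).

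Ccn1 was most like immediate early genes, which are transcribed within minutes of a stimulus: Egr1 (0.37), Fos (0.35), Atf3 (0.31), Junb (0.30) and Dusp1 (0.29). Of 14 immediate early genes that were seen often enough, 14 had a positive correlation with Ccn1, with a median of 0.26, beside 0.01 over all genes. For Ccn2 the median was 0.10, for Ankrd1 0.04 and for Hmga2 -0.06. The tumors were digested with enzymes before capture, and the part of that step in the RNAs of immediate early genes and Ccn1 was not tested. Ankrd1 was most like Tm4sf1 (0.18), Ptgs2 (0.17), Dusp5 (0.17), Cxcl1 (0.15) and Ccl2 (0.15), and Ccn2 most like Igfbp7 (0.17), Ptgs2 (0.16), Ext1 (0.15), the YAP target Amotl2 (0.15) and Fos (0.14). Among themselves, Ccn1 and Ccn2 reached 0.33, Ankrd1 and Ccn1 0.27, Ankrd1 and Ccn2 0.21, Hmga2 and F3 0.12, and Ccn1 and Sprr1a -0.15. Other YAP targets were weakly correlated with the members, with medians over 17 of them of 0.04 for Ccn1, 0.05 for Ccn2 and 0.04 for Ankrd1. For Hmga2 the median was 0.02, for F3 0.01 and for Sprr1a -0.03. Medians over all genes lay between -0.015 (Sprr1a) and 0.009 (Hmga2).

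Other YAP/TEAD targets moved in both directions in the tumor cells. Of 22, all tested, 3 rose and 4 fell with IL10/2-Trikine against PBS, with a median difference of 0.00 beside 0.00 over all genes, and 6 rose and 4 fell against mono-IL10. Of all genes tested, 10.6% were higher and 12.3% lower in the first of these comparisons and 16.4% and 18.8% in the second. The stress and growth arrest gene Gadd45a went from 155 ± 14.3 with PBS to 95.6 ± 11.6 CPM with IL10/2-Trikine (SD, n = 5), a fall of 0.68 on the log2 scale (edgeR, adjusted p = 3.21e-04). Tgfb2 fell by 0.49 (edgeR, adjusted p = 0.00219), and the LIM protein gene Ajuba and the Hippo kinase gene Lats2 rose by 0.35 and 0.36 (edgeR, adjusted p = 0.0142 and 0.00219). With mono-IL10 against PBS edgeR called 0 of the 22, where 5.71% of all genes were called, and 2 of the 22 had an unadjusted p under 0.05, beside 3086 of all 14910 genes.

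Of 18 Hippo pathway genes 17 were tested, and with IL10/2-Trikine against PBS the coactivator gene Wwtr1, which encodes TAZ, fell by 0.13 (edgeR, adjusted p = 0.0113), while Mob1a and Mob1b, cofactors of the Lats kinases, rose by 0.10 and 0.19 (edgeR, adjusted p = 0.0336 and 0.00476). Mob1a stood at 53.7 ± 1.89 CPM with IL10/2-Trikine, beside 164 in macrophages. The other 14 Hippo genes did not pass the test, and the list's median was -0.01. Of 12 oncofetal genes related to Hmga2, 8 were tested, 1 rose and 2 fell. Of all genes 22.9% were called in this comparison, so the Hippo share, 3 of 17, was no higher than that. Igf2bp2, an mRNA-binding protein gene that Hmga2 is known to regulate, fell by 0.18 (edgeR, adjusted p = 0.0211) and Arid3a fell by 0.60 (edgeR, adjusted p = 0.00118). H19 rose by 1.75 (edgeR, adjusted p = 0.0144) at 1.32 ± 0.816 CPM, beside 159.6 in fibroblasts. In these barcodes 1 of 8 fibroblast markers passed the test as higher, with a median difference of 0.84 over the 8. The part of fibroblast RNA in the H19 value was not tested.

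Most mesenchymal and epithelial genes did not pass the test with IL10/2-Trikine against PBS, and more of those that did were lower. Of 14 mesenchymal transition genes 5 fell and 1 rose, where 12.3% of all genes were lower and 10.6% higher, with a median of -0.14. Vim went from 3236 ± 170.1 to 2568 ± 182, a fall of 0.31 (edgeR, adjusted p = 0.00354). Snai1 fell by 0.55 (edgeR, adjusted p = 0.0467), from 2.91 ± 0.791 to 1.93 ± 0.176 CPM, with groups that overlapped. Tgfbi rose by 1.37 (edgeR, adjusted p = 0.0346) at 23.2 ± 17.7 CPM, beside 1491 in macrophages. In these barcodes 4 of 8 macrophage markers rose, and the part of macrophage RNA in the Tgfbi value was not tested. Of 8 epithelial genes tested, 3 fell and 0 rose, namely Cldn4 by 0.97 (edgeR, adjusted p = 0.00321), Krt7 by 0.40 (edgeR, adjusted p = 0.0115) and Krt19 by 0.36 (edgeR, adjusted p = 7.81e-04). Cldn4 was low, at 11.2 ± 1.94 CPM with PBS and 5.72 ± 1.53 with IL10/2-Trikine.

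Of 16 squamous and cornified envelope genes beside Sprr1a, 9 were tested. With mono-IL10 against PBS, 1 of them rose, the stress keratin gene Krt16, where 4.28% of all genes were higher, and with IL10/2-Trikine against mono-IL10 it fell together with Ivl and Sfn, where 18.8% of all genes were lower. With IL10/2-Trikine against PBS Sprr2a3 rose by 0.62 (edgeR, adjusted p = 0.0198) and Krt80 fell by 0.34 (edgeR, adjusted p = 0.0451).

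Around F3, 6 of 14 coagulation and plasmin genes fell and 2 rose with IL10/2-Trikine against PBS, where 12.3% of all genes were lower and 10.6% higher, with a median of -0.05. The urokinase gene Plau fell by 0.65 (edgeR, adjusted p = 0.00330), from 5.98 ± 0.364 to 3.95 ± 1.16 CPM. Its receptor gene Plaur was among the others that fell. F7 and F10, the coagulation factors that tissue factor activates or binds, rose by 2.12 and 1.08 (edgeR, adjusted p = 0.0286 and 0.0243) at 1.73 ± 2.29 and 2.15 ± 1.41 CPM. In the same barcodes 4 of 8 macrophage markers rose, and the part of macrophage RNA in these 2 values was not tested. Of 15 immediate early genes 4 fell and 1 rose, with Atf3 falling by 0.30 (edgeR, adjusted p = 0.0426), Ier3 by 0.28 (edgeR, adjusted p = 0.0374) and Klf6 by 0.22 (edgeR, adjusted p = 0.0481), and Dusp1 rising by 0.30 (edgeR, adjusted p = 0.0115).

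In fibroblasts, where Ccn1 rose with IL10/2-Trikine against mono-IL10, 5 of 15 immediate early genes rose in the same comparison, Dusp1, Egr1, Fos, Ier2 and Junb, and Jund and Myc fell, where 1.24% of all genes were higher and 2.67% lower, with a median of 0.20 beside 0.01 over all genes. With library size alone the balance over all genes turned round, to 214 higher and 94 lower. The part of the tumor digestion in the values of Ccn1 and the immediate early genes was not tested. Of 17 other YAP/TEAD targets tested there, Amotl2 rose and Fjx1 and Tgfb2 fell. With IL10/2-Trikine against PBS, Fos rose and Myc fell among the immediate early genes, and edgeR called 0 of the 17 YAP/TEAD targets, 4 of which had an unadjusted p under 0.05. Of all 7901 genes 1.29% were called in that comparison, and 1097 had an unadjusted p under 0.05.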

How the data were processed

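RNA was measured in 3 single-cell gene expression libraries, 1 for each treatment, with hashtag counts for the mice. The authors counted UMIs per gene and barcode with Cell Ranger on GRCm39, and the deposited matrices hold these raw counts. The processing notes name Seurat 5.1.0 and DESeq2 1.46.0. A deposited table of the T and NK cells named by the authors gives their clusters, hashtag calls, UMI counts and the percent of mitochondrial UMIs in each cell, and was used only for the levels in T and NK cells.

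A barcode was used if it held 1000 or more genes and if mitochondrial UMIs made up no more than 10%. Mice were called from the hashtags with HTODemux (Seurat 5.3.0, quantile 0.99). Barcodes with more than 1 hashtag were left out as doublets, and those with none were kept for counts of barcodes but in no value per mouse; no other doublet caller was run. Cell classes other than the tumor gate came from k-means with 60 clusters on 40 principal components of 2000 variable genes, named from marker lists, and may differ from the names of the study. UMIs were summed per mouse and class with at least 10 cells and tested with edgeR 4.0.16 (limma 3.58.1, R 4.3.3) by the quasi-likelihood test with TMM scaling and filterByExpr, with the 3 groups in 1 fit. DESeq2 1.42.0 was an alternative. The 95% intervals are 1.96 SE on either side. The other steps used Python 3.11.15, numpy 2.4.6, pandas 2.3.3, scipy 1.17.1, scikit-learn 1.9.0 and matplotlib 3.10.9. On simulated counts for 14725 genes, IL10/2-Trikine against PBS in tumor epithelial barcodes, the test recovered 98% of 2-fold and 93% of 1.5-fold changes and called 0.076% of the unchanged genes. The 200 changed genes were drawn above a minimum level, and no shift in RNA composition between libraries was put in. These shares therefore do not cover genes at lower levels, larger sets of changed genes or the scaling of the libraries.

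The genes and lists were chosen with earlier results of these data known. Named were the 6 genes, from each list up to 4 genes with the largest change past the threshold in tumor epithelial barcodes for IL10/2-Trikine against PBS, and for each of the 6 genes the 5 most alike. A gene that this rule would name is not reported here. Genes named for another comparison, for fibroblasts, for a full count of a list or beside the Hmga2 classes were named after their values were seen. The sources state no pairing of animals by hashtag number, so the treatment fits carry no block, while the fit over both cell classes has the mouse as a term. Thinning used 5000 UMIs, or 2500 as an alternative. The intervals of edgeR values rest on the spread between mice, and shares of barcodes carry no interval. No column of another series was used.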

Additional observations from a re-analysis of the deposited data

Results flagged for a closer look

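In groups of 5 mice, a mouse was singled out where its distance to the nearest other mouse exceeded 0.71 of the range of its group. Of 36 groups examined (6 genes in both cell classes and 3 treatments), 4 held such a mouse, and chance gives about 1 in 20. F3 in tumor epithelial barcodes stood at 216 CPM in IL10/2-Trikine mouse 2, above 182 in the next mouse. In fibroblasts, Hmga2 stood at 15.98 CPM in PBS mouse 3, with 7.68 in the next mouse, and Sprr1a at 19.4 CPM in the same mouse, with 4.27 in the next. F3 in fibroblasts stood at 122 CPM in mono-IL10 mouse 1, with 50.1 in the next mouse.

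The change of Ccn1 between IL10/2-Trikine and mono-IL10 differed between fibroblasts and tumor epithelial barcodes by 0.72 on the log2 scale (edgeR, adjusted p = 7.24e-04).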

How the results depend on the processing

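The calls for F3 against both other groups and for Sprr1a between the cytokines were kept in 26 of 26 alternatives each, and that for the Ccn1 difference between cell classes in 17 of 17. Those 17 were 15 fits with a mouse left out and 2 other settings. The call for Ankrd1 was kept in 25 of 26 against PBS and 23 of 26 against mono-IL10, that for Sprr1a with mono-IL10 against PBS in 20 of 26, and that for Ccn1 in fibroblasts in 12 of 23. Counts of called genes in tumor epithelial barcodes are given in the order IL10/2-Trikine against PBS, IL10/2-Trikine against mono-IL10, and mono-IL10 against PBS, with 3411, 5241 and 851 as reported. With barcodes thinned to 5000 UMIs they were 1142, 2231 and 434, with fewer genes tested. Mice thinned to 1 total gave 2228 in the first and 499 in the third, the gate joined to a tumor epithelial-like cluster gave 533 in the third, and library size alone gave 2259 in the third. Thinning of barcodes and library size alone were chosen after seeing the data. In fibroblasts the counts were 102, 309 and 12 as reported. DESeq2 gave 159 in the first and 87 in the third, no filter on low counts gave 300, 582 and 142, thinned mice gave 195 in the second, and the collagen gate gave 19 and library size alone 4 in the third. For the difference between cell classes, reported as 49, 234 and 0, no filter on low counts gave 163, 395 and 68. The cause of these moves was not tested. Ccn2 in fibroblasts, IL10/2-Trikine against PBS, turned to 0.015 with thinned mice.

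The mean share of tumor epithelial barcodes with at least 4 of the 6 genes was 79.2%, 88.0% and 62.6% unthinned (PBS, mono-IL10 and IL10/2-Trikine), 19.5%, 21.6% and 16.3% at 2500 UMIs, and with the gate at 20 keratin UMIs 45.3%, 48.6% and 43.5%. Co-detection crossed 1 for Hmga2 and Ccn2 at 2500 UMIs, at 0.969, and unthinned for Ccn1 and Sprr1a at 1.02 and for Ccn2 and Sprr1a at 1.01.

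With each mouse left out in turn, the counts ran from 2738 to 3440, 4528 to 5298 and 442 to 1099 in tumor epithelial barcodes, from 34 to 118, 131 to 324 and 1 to 24 in fibroblasts, and from 3 to 45, 132 to 243 and 0 to 3 for the difference between cell classes. Values that turned sign were Ccn2 (-0.017 to 0.10, IL10/2-Trikine against mono-IL10) and Ankrd1 (-0.10 to 0.026, mono-IL10 against PBS) in tumor epithelial barcodes, Ccn2 (-0.21 to 0.36, IL10/2-Trikine against PBS) and F3 (-0.23 to 0.39, mono-IL10 against PBS) in fibroblasts, and for the difference between cell classes Ccn2 (-0.086 to 0.29, IL10/2-Trikine against PBS) and F3 (-0.29 to 0.17, -0.23 to 0.17 and -0.33 to 0.26). None of these was past the threshold.

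With the hashtag number as a replicate block the counts were 3612, 5399 and 1046 in tumor epithelial barcodes and 105, 309 and 21 in fibroblasts, and no call of the 6 genes changed. The numbers share an antibody, not an animal. Deviations of same-numbered mice correlated between -0.15 and 0.37 over 15 pairs (median 0.06), beside a median of -0.03 over 60 pairs of unlike number. Among the mice of the other groups, 8 of 15 mice correlated best with one of their own number, though most of those mice carried another number. The source of this likeness was not tested. With 28 to 133 fibroblasts per mouse, differences of Hmga2, Ankrd1 and Sprr1a there were left out, a choice made after the values were seen.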
